A study of Mus musculus with 12 samples.

Results

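The genes described here encode, in the nucleus, the subunits and assembly factors of the mitochondrial respiratory chain and ATP synthase. They are the protein-coding mouse genes whose symbols begin with Ndufa, Ndufb, Ndufc, Ndufs, Ndufv, Uqcr, Atp5 or Cox4 to Cox8, together with Sdha, Sdhb, Sdhc and Sdhd. The rule took 94 genes of the 21774 protein-coding genes with a value: 46 named for complex I, 4 for complex II, 8 for complex III, 18 for complex IV and 18 for complex V. Of the 94, 87 passed the filter on low values, an FPKM (fragments scaled to transcript length and library size) of at least 1 in at least 3 libraries, and were tested.

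The data were 12 RNA-seq libraries from the colon of C57BL/6 mice in a model of colitis-associated cancer, in 4 groups of 3. Tumours and adjacent colon were taken from mice with a floxed Synbindin allele (flox), taken here as the controls, and from mice labelled SynbindinΔIEC (ΔIEC). The study asked what deletion of Synbindin, the product of Trappc4 and a subunit of the vesicle-tethering TRAPP complexes, does in this model. Both genotypes carried tumours, and no colon from mice outside the cancer model was analysed here. The driver of the deletion, the age and sex of the mice and the agents that induced the tumours are not named in the labels, and the series title speaks of scraped epithelium whereas the protocol speaks of dissected tissue. The labels do not say whether the libraries of a group came from separate mice. The p-values set differences between groups against the spread between libraries of a group, and that spread may be technical.

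The respiratory chain passes electrons from NADH (complex I) and succinate (complex II) through coenzyme Q, complex III and cytochrome c to oxygen at complex IV, and complex V makes ATP from the proton gradient that results. All these complexes except complex II also contain subunits encoded by mitochondrial DNA, so that a working chain needs transcripts from both genomes. Absorptive cells of the colon are known to be rich in mitochondria and to oxidise butyrate, a short-chain fatty acid made by gut bacteria, as a main fuel. In bulk tissue, fewer cells of a type and less RNA per cell cannot be told apart.

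Facts of the whole series that touch these genes were as follows. The files give FPKM and no read counts, so the depth is unknown and no counting interval can be given. Summed FPKM was 686922 to 821487 in the adjacent libraries and 534806 to 706216 in the tumour libraries. The total of nuclear protein-coding genes was 423997 to 513412 in adjacent tissue and 344790 to 378729 in tumours, so each gene was also compared after that total had been set equal in every library. Trappc4 was at 17.0 ± 0.285 (SD, n = 3) and 19.0 ± 1.73 FPKM in flox adjacent tissue and tumours, against 11.1 ± 1.30 and 11.3 ± 1.39 in the ΔIEC groups, without overlap between the genotypes. Epithelial markers were detected in all libraries. Among the adjacent libraries, flox replicate 1 and ΔIEC replicates 2 and 3 stood apart from the other 3: their summed FPKM of 7 absorptive colonocyte markers was 1926 to 3132, against 6185 to 8505.

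Promoter sequences of 5 genes on which the results below turn are shown first, as the 250 bases before the start site in RefSeq (GRCm38.p6), each written 5′ to 3′ on the gene's own strand. Capitals mark the letters GCGCATGCG, the site of the nuclear respiratory factor NRF1, or CCGGAAG, a core of the sites bound by ETS factors such as GABP, in either direction. Cox6a1 (chr5:115348959-115349208, minus strand) holds both, Atp5k (chr5:108434400-108434649, minus strand) holds the first and Uqcrh (chr4:116075071-116075320, minus strand) the second. Cox7a1 (chr7:30183921-30184170, plus strand) and Ndufa4 (chr6:11907451-11907700, minus strand) hold neither in this window. They stood farthest from the other genes in opposite directions, but most of the genes searched also hold neither.
Cox6a1: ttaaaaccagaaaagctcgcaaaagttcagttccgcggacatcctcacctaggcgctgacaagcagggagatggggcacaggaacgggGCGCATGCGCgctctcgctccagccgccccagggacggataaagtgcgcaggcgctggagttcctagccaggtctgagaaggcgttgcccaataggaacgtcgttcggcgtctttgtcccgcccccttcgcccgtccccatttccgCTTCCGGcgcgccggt
Atp5k: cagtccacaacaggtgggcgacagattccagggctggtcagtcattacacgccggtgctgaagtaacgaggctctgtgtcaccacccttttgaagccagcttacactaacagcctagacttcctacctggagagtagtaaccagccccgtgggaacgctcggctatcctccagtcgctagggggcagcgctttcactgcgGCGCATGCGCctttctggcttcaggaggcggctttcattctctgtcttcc
Uqcrh: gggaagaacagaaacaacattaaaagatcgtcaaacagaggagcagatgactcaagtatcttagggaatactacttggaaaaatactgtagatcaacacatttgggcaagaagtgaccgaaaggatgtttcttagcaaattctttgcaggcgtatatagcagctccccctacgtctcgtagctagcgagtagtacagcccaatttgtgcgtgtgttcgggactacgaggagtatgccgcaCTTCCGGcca
Cox7a1: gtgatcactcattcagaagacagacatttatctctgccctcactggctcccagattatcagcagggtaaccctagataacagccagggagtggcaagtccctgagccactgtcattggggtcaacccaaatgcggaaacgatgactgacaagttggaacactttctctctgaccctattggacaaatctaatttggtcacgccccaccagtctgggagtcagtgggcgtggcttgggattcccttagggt
Ndufa4: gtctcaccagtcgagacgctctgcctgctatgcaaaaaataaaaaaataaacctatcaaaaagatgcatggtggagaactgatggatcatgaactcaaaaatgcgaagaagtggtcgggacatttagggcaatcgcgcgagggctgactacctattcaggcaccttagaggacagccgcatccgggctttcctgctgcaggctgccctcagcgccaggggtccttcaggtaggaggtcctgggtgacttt

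Of the 94 genes, 74 matched a promoter in the table, and 72 of these were tested. The NRF1 letters were found in 7 of the 72 (9.72%), namely Atp5g2, Atp5k, Atp5l, Cox6a1, Ndufa8, Ndufa11 and Ndufaf4, against 1.64% of all 27025 genes in the table. The ETS letters were found in 14 of the 72 (19.4%), among them Cox6a1, Cox6b1, Uqcrh, Uqcr11 and Sdhd, against 7.83% of all genes. AAGATGGCG, a site of YY1, was found in 1 of 72 (Atp5j) and TCAAGGTCA, a site of the oestrogen-related receptors, in 1 of 72 (Atp5g3), against 0.711% and 0.422% of all genes. Each motif was searched on both strands, and a match is a description of the letters and not evidence of binding. There were 32851 promoters for the 27025 genes, so a gene can have more than 1. Atp5j is counted although its window at chr16:84835626-84835875 holds neither the YY1 nor the ETS letters.

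Expression of the respiratory chain was lower in tumours than in adjacent colon in both genotypes. In flox mice 77 of the 87 tested genes fell and 0 rose (limma, adjusted p below 0.05 over all 16970 genes tested), where 19.7% of all genes tested were called lower and 16.6% higher. The median log2 difference of the 87 was -0.87, against -0.01 over all genes tested. In ΔIEC mice 63 of the 87 fell and 1, Ndufa4, rose, where 15.5% of all genes were called lower and 13.9% higher, and the median was -0.54, against -0.03 over all genes. Expressed as a share of nuclear protein-coding FPKM, the 94 genes made up 3.00% to 3.35% in the 3 flox adjacent libraries, 2.97% to 3.04% in ΔIEC adjacent tissue, 2.17% to 2.25% in flox tumours and 2.37% to 2.51% in ΔIEC tumours. Every tumour library lay below every adjacent library in this share. The heat map of all tested genes shows this library by library.

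**Figure D1:**
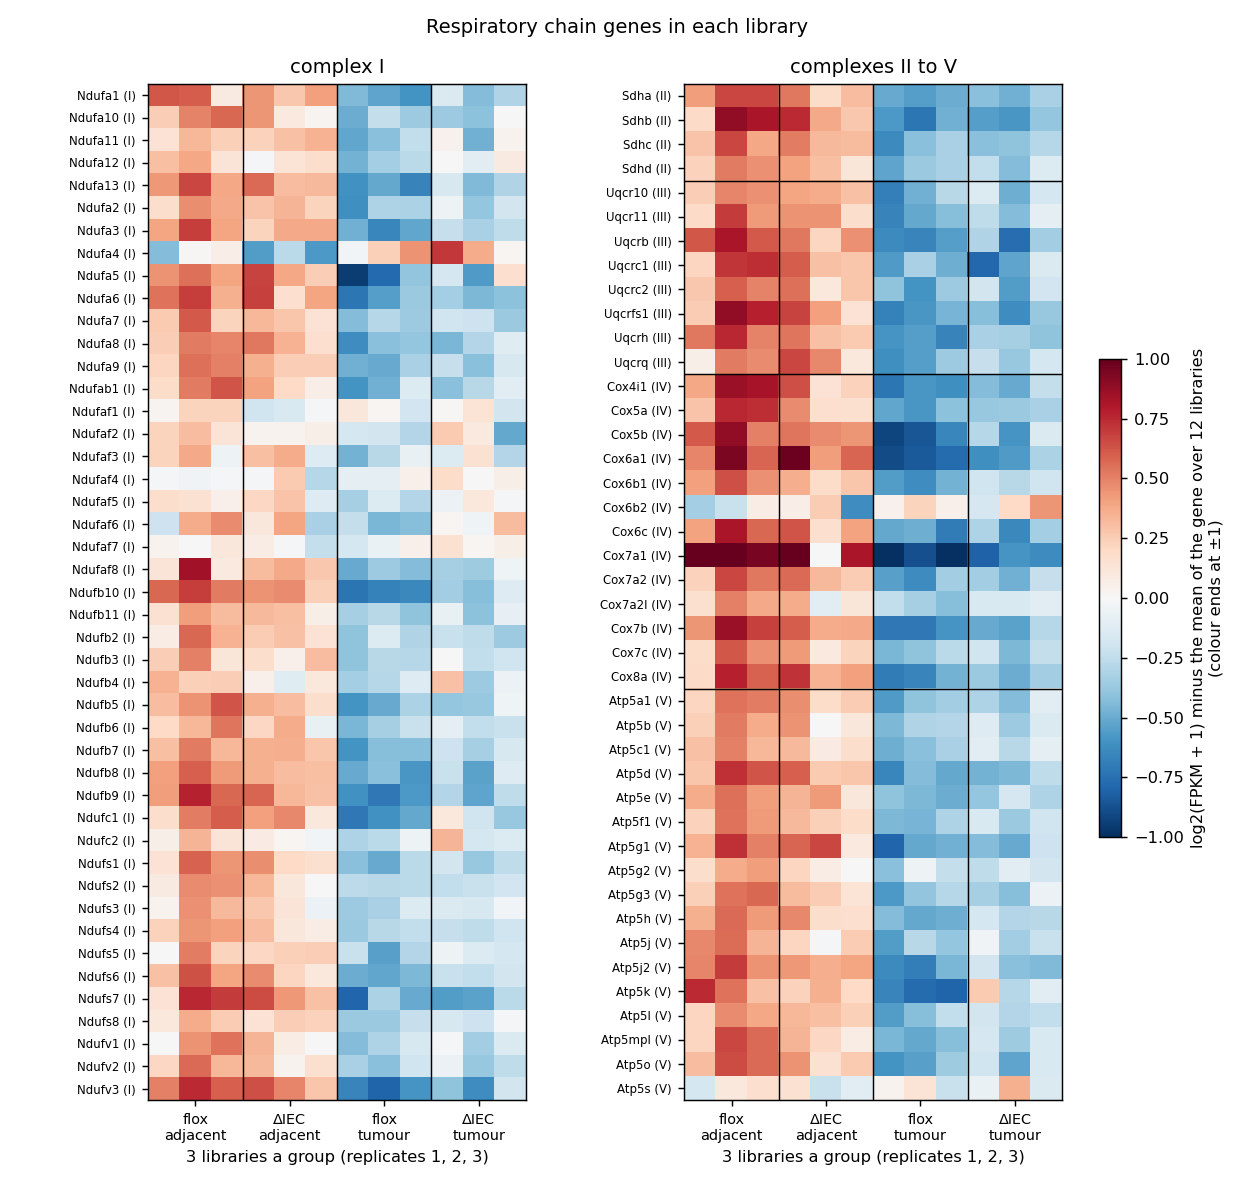
The 87 tested genes (rows, complex in brackets) in 12 libraries (columns, 3 a group). Colour is log2(FPKM + 1) minus the gene's mean over the 12 libraries, red above and blue below it. Most rows are red in the 6 adjacent libraries and blue in the 6 tumour libraries, while Ndufa4 runs the other way and Cox7a1 has the widest range.

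With nuclear protein-coding totals set equal, the differences were smaller and the medians of all 5 complexes stayed below 0 in both genotypes. On that scale 61 of 88 tested genes were called lower and 2 higher (Ndufa4 and Ndufa4l2) in flox tumours, with a median of -0.45, where 10.3% of all genes were called lower and 37.3% higher. In ΔIEC tumours 32 were called lower and 2 higher (Ndufa4 and Ndufaf7), with a median of -0.24, where 8.7% of all genes were called lower and 25.6% higher. The rescaling moved the median of all genes to 0.34 and 0.21, so that relative to all genes the members lay at -0.79 and -0.45, against -0.86 and -0.51 on the deposited scale. By complex, 23 of 46 genes of complex I, 4 of 4 of II, 8 of 8 of III, 11 of 13 of IV and 15 of 17 of V were called lower in flox tumours, and 9, 3, 7, 9 and 4 in ΔIEC tumours. Quantile normalization left 41 calls in ΔIEC tumours, 40 lower and 1 higher, where 14.1% of all genes were called lower and 16.2% higher.

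Markers of some cell types also differed between tumours and adjacent tissue. Summed FPKM of 9 epithelial markers was 5435 to 9206 in adjacent tissue and 3964 to 5647 in tumours, with 8 of 9 called lower in flox tumours and 3 of 9 in ΔIEC tumours. The 7 absorptive colonocyte markers summed to 1926 to 8505 in adjacent tissue and 204 to 465 in tumours (7 of 7 and 6 of 7 called lower). The 7 goblet cell markers summed to 17228 to 49675 against 994 to 3878, and all 7 were called lower in both genotypes. The 4 neutrophil markers summed to 1.68 to 5.44 in adjacent tissue and 123 to 567 in tumours, with 4 of 4 called higher in both, and the 6 fibroblast markers to 44.6 to 247 against 276 to 581, with 4 of 6 called higher in flox and 1 of 6 in ΔIEC tumours. The 6 squamous markers, which are foreign to colon, summed to 0.761 to 4.14 in adjacent tissue. In tumour replicates 1, 2 and 3 they summed to 343, 340 and 23.2 in flox and to 38.2, 20.1 and 18.4 in ΔIEC mice. The 6 markers of cycling cells summed to 124 to 239.5 in adjacent tissue and 188 to 306 in tumours. The 5 endothelial markers summed to 9.44 to 34.7 against 32.2 to 44.9, with 4 of 5 called higher in flox and 0 in ΔIEC tumours. On the deposited scale 16.6% and 13.9% of all genes were called higher in flox and ΔIEC tumours, and 19.7% and 15.5% lower. With nuclear protein-coding totals set equal, 37.3% and 25.6% of all genes were called higher, and 10.3% and 8.7% lower. There epithelial markers were called lower in 4 and 2 of 9, and cycling markers higher in 6 and 5 of 6 (1 and 0 on the deposited scale). Fibroblast markers were called higher in 5 and 3 of 6 and endothelial markers in 4 and 2 of 5. Few markers of some other lists were called on the deposited scale. Smooth muscle and B and plasma cell markers were called in 0 of 6 and 0 of 5 in both genotypes. Of 5 macrophage markers 1 was called higher in flox tumours and 0 in ΔIEC tumours. Of 5 T cell markers 1 and 0 were called lower. Of 6 tested pericyte markers 1 was called higher in each genotype. With totals set equal, 4 macrophage and 4 pericyte markers were called higher in flox tumours, and 0 and 1 in ΔIEC tumours. No marker of these lists was at 0 in every library. Their part in the fall of the respiratory chain genes, and in the differences between the genotypes in tumours, was not tested.

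Complex I, which oxidises NADH, was represented by 45 tested genes, of which 37 fell in flox tumours (median -0.69) and 27 fell in ΔIEC tumours (median -0.45). The 7 core subunits, which carry the flavin and the iron-sulphur clusters, all fell in flox tumours and 5 of 7 fell in ΔIEC tumours. Ndufs7, the core subunit that holds the last cluster before coenzyme Q, was at 61.0, 93.8 and 90.2 FPKM in flox adjacent tissue, 87.4, 74.6 and 67.8 in ΔIEC adjacent tissue, 31.3, 44.0 and 38.6 in flox tumours and 37.1, 37.7 and 45.6 in ΔIEC tumours. No tumour library reached an adjacent one. It fell by 1.07 (SE 0.19, adjusted p = 0.00204) in flox tumours and by 0.91 (SE 0.19, adjusted p = 0.00622) in ΔIEC tumours on the log2 scale, the largest called fall within complex I in ΔIEC mice. Ndufs1, the largest subunit, fell by 0.79 and 0.55, whereas Ndufv1, which binds NADH, fell by 0.63 (adjusted p = 0.0126) in flox tumours and differed by -0.31 (adjusted p = 0.17) in ΔIEC tumours.

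Of the 30 genes grouped as accessory subunits of complex I, 28 fell in flox tumours, with a median of -0.86, and 21 fell in ΔIEC tumours, with a median of -0.50. Ndufb10, a subunit of the membrane arm, was at 77.4, 83.7 and 74.4 FPKM in flox adjacent tissue and 30.7, 31.9 and 32.6 in flox tumours. Its ΔIEC values were 70.8, 72.0 and 61.0 FPKM in adjacent tissue and 40.4, 38.2 and 47.1 in tumours. The tumour and adjacent libraries were far apart and narrow within each group, and its fall of 1.28 (SE 0.11, adjusted p = 0.000291) in flox tumours had the smallest p of the 87 genes. In ΔIEC tumours it fell by 0.69 (adjusted p = 0.00204). Ndufv3, an accessory subunit beside the NADH-binding site, had the largest called fall of complex I in flox tumours, from 138 ± 11.8 to 55.5 ± 4.24 FPKM (-1.30 in log2), and fell by 0.87 in ΔIEC tumours. Ndufb9, also of the membrane arm and the most abundant complex I gene per length, fell from 199.6 ± 24.4 to 84.8 ± 4.20 FPKM in flox and from 175 ± 19.8 to 103 ± 10.3 in ΔIEC mice.

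The assembly factors of complex I, which help to build it and are not part of the finished complex, differed less. Of the 8 tested, Ndufaf5 and Ndufaf8 fell in flox tumours (-0.38 and -0.79) and Ndufaf8 fell in ΔIEC tumours (-0.56). The median of the 8 was -0.41 in flox and -0.03 in ΔIEC tumours. Ndufaf4, for example, was at 12.7, 12.5 and 12.7 FPKM in flox adjacent tissue and 12, 11.9 and 13.4 in flox tumours, overlapping ranges, with a log2 difference of -0.02 (95% interval -0.31 to 0.26). These factors are expressed at a low level, where log2(FPKM + 1) understates a fold difference most. The difference between assembly factors and structural subunits was not tested.

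**Figure D2:**
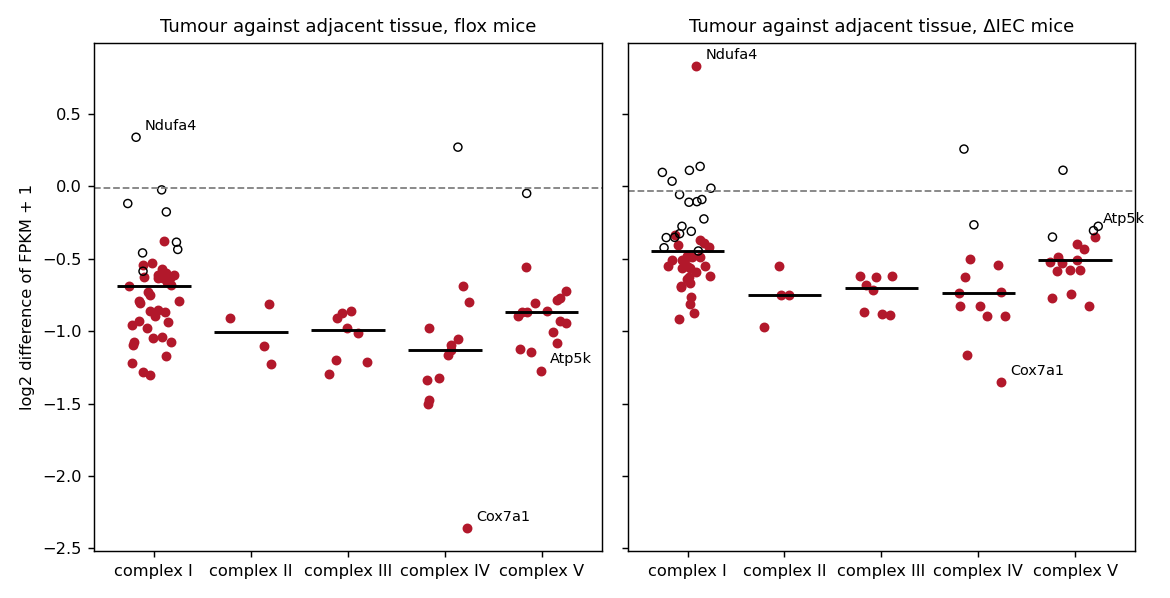
Log2 difference of each tested gene between tumour and adjacent tissue in flox (left) and ΔIEC mice (right), by complex. Filled points passed the adjusted threshold of 0.05, open points did not, black bars are medians of a complex and the dashed line is the median of all genes tested. Nearly all genes lie below the dashed line in both panels, with Cox7a1 the lowest and Ndufa4 the highest.

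Ndufa4 was the exception among the abundant genes. It was named for complex I but is known as a subunit of complex IV. It was at 91.8, 125 and 130.5 FPKM in flox adjacent tissue, 84.3, 103 and 83.4 in ΔIEC adjacent tissue, 122, 147 and 170.4 in flox tumours and 204, 161 and 127 in ΔIEC tumours. The ΔIEC tumours were all above the ΔIEC adjacent libraries, whereas the flox groups overlapped. It rose by 0.83 (SE 0.20, adjusted p = 0.0131) in ΔIEC tumours and differed by 0.34 (SE 0.20, adjusted p = 0.213) in flox tumours, and the difference between the genotypes was not called (adjusted p = 1). Without ΔIEC tumour replicate 1, the highest library, the rise was 0.66 and no longer called (limma, adjusted p = 0.0529). With nuclear protein-coding totals set equal the difference was called in both genotypes, at 0.76 (adjusted p = 0.0118) in flox tumours and 1.13 (adjusted p = 0.00288) in ΔIEC tumours. Its relative Ndufa4l2 did not pass the filter, at 0.473, 0.0459 and 0 FPKM in flox adjacent tissue and 1.32, 2.04 and 0.954 in flox tumours.

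Complex II links the respiratory chain to the tricarboxylic acid cycle and is the one complex encoded wholly in the nucleus. All 4 subunits fell in both genotypes, with medians of -1 and -0.75. Sdha, the flavoprotein that oxidises succinate, was at 143, 169.7 and 170.5 FPKM in flox adjacent tissue, 154, 121 and 132 in ΔIEC adjacent tissue, 75.0, 72.4 and 75.4 in flox tumours and 79.7, 76.4 and 84.8 in ΔIEC tumours. The tumour libraries lay in a narrow band, well under the lowest adjacent library. Sdha fell by 1.10 (SE 0.11, adjusted p = 0.000304) and 0.75 (SE 0.11, adjusted p = 0.00183). Sdhb, the iron-sulphur subunit, was at 119, 193 and 185 FPKM in flox adjacent tissue against 69.5, 62.8 and 74.3 in flox tumours, and at 176, 136 and 126 against 70.8, 69.4 and 79.3 in ΔIEC mice. Its fall of 1.23 and 0.97 was the largest of the complex, although the adjacent libraries varied more than for Sdha. The membrane anchors Sdhc and Sdhd fell by 0.91 and 0.81 in flox tumours and by 0.75 and 0.55 in ΔIEC tumours (adjusted p = 0.00903 for Sdhd, the largest of the 8).

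Complex III passes electrons from coenzyme Q to cytochrome c, and all 8 tested genes fell in both genotypes, with medians of -0.99 and -0.70. Uqcrh, the hinge protein that binds cytochrome c1 and whose promoter is shown above, was at 314, 367 and 307 FPKM in flox adjacent tissue, 315, 267 and 260.5 in ΔIEC adjacent tissue, 144, 148 and 136 in flox tumours and 173, 172 and 164 in ΔIEC tumours. The groups of tumours and adjacent tissue did not overlap. It fell by 1.20 (SE 0.10, adjusted p = 0.000291) and 0.72 (SE 0.10, adjusted p = 0.00169). Uqcrfs1, the Rieske iron-sulphur protein and the one catalytic subunit in the set, fell from 119.5 ± 26.4 to 50.1 ± 3.68 FPKM in flox mice and from 101 ± 18.7 to 53.8 ± 4.83 in ΔIEC mice, by 1.22 and 0.89 on the log2 scale. The largest called fall in flox tumours was that of Uqcrb, a subunit near the coenzyme Q site, from 441 ± 35.2 to 178 ± 7.26 FPKM. The core proteins Uqcrc1 and Uqcrc2 fell by 1.01 and 0.91 in flox and by 0.88 and 0.63 in ΔIEC tumours. Cyc1, the cytochrome c1 of the same complex, is outside the naming rule and fell by 1.25 and 0.91.

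Complex IV, cytochrome c oxidase, hands the electrons to oxygen. Of its 13 tested genes 12 fell in flox tumours, with a median of -1.13, and 11 fell in ΔIEC tumours, with a median of -0.74. Cox4i1, which stabilises the core of the enzyme, was at 498, 694 and 675 FPKM in flox adjacent tissue, 597, 422 and 446 in ΔIEC adjacent tissue, 231, 255 and 249.6 in flox tumours and 282, 269 and 323 in ΔIEC tumours. Each tumour library was below each adjacent library, and the adjacent libraries spread widely. It fell by 1.33 and 0.73 on the log2 scale (adjusted p = 0.000509 for flox, 0.009 for ΔIEC).

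Cox6a1 carried both promoter motifs and had the smallest p among the falls in ΔIEC tumours, from 422, 286 and 320.5 FPKM to 139, 144 and 171. In flox mice it went from 299.9, 411.7 and 319 FPKM to 114, 119 and 125. The fall was 1.16 (SE 0.16, adjusted p = 0.00158) in ΔIEC and 1.50 (SE 0.16, adjusted p = 0.000351) in flox tumours. Cox6b1, which joins the monomers of the enzyme on its outer face, Cox5b, the zinc-binding subunit, and Cox7b fell by 1.06, 1.48 and 1.34 in flox tumours and by 0.50, 0.83 and 0.89 in ΔIEC tumours. Cox8a, the most abundant gene of the complex per length, fell from 595 ± 119 to 268 ± 23.6 FPKM and from 578 ± 82.5 to 308 ± 16.8.

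Several subunits of complex IV exist as a general form and a form restricted to muscle, testis or lung. The restricted forms were near 0 or low here, with 1 exception. Cox7b2 and Cox8c were listed at 0 in all 12 libraries, and Cox4i2, Cox6a2 and Cox8b did not reach an FPKM of 1 in 3 libraries. Cox6b2 was low, at 2.75, 3.08 and 3.99 FPKM in flox adjacent tissue and 3.90, 4.55 and 3.92 in flox tumours, and was not called (0.27, adjusted p = 0.391). The exception was Cox7a1, known as the heart and muscle form, on chromosome 7 at chr7:30184144-30186078 of GRCm38 (plus strand). It was at 74.9, 86.7 and 63.2 FPKM in flox adjacent tissue, 76.2, 32.1 and 57.7 in ΔIEC adjacent tissue, 11.5, 17.1 and 13.0 in flox tumours and 18, 21.1 and 20.5 in ΔIEC tumours. No tumour library reached the lowest adjacent one, ΔIEC replicate 2. Cox7a1 fell by 2.36 (SE 0.27, adjusted p = 0.000412) in flox and by 1.35 (SE 0.27, adjusted p = 0.00565) in ΔIEC tumours, the widest fall of the 87 genes in both. With totals set equal these were -1.95 (adjusted p = 0.000361) and -1.07 (adjusted p = 0.00738).

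Cox7a2, the general form, was more abundant and fell less, from 200.0 ± 30.2 to 100.4 ± 10.3 FPKM in flox (-0.98) and from 187 ± 21.7 to 112 ± 9.54 in ΔIEC mice (-0.74). Cox7a2l, a related protein known from supercomplexes of the chain, fell by 0.69 (adjusted p = 0.00353) in flox tumours and differed by -0.27 (adjusted p = 0.156) in ΔIEC tumours. With totals set equal its difference was not called, at -0.27 in flox tumours (adjusted p = 0.0651) and 0.03 in ΔIEC tumours (adjusted p = 0.871). Markers of muscle and fat, where Cox7a1 is usually abundant, had these values. The 6 striated muscle markers summed to 2.64 to 9.07 FPKM in adjacent tissue and 2.28 to 3.74 in tumours, and the 6 adipocyte markers to 0.586 to 13.8 and 0.366 to 1.76. The 6 smooth muscle markers summed to 18.2 to 249.9 in adjacent tissue and 36.1 to 272 in tumours. Over the flox adjacent replicates 1, 2 and 3, where Cox7a1 was highest in replicate 2, the smooth muscle sums were 167, 18.2 and 249.9, the striated muscle sums 2.64, 9.07 and 7.82 and the adipocyte sums 0.586, 12.3 and 13.8. The part of these cell types in the fall of Cox7a1 was not tested.

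**Figure D3:**
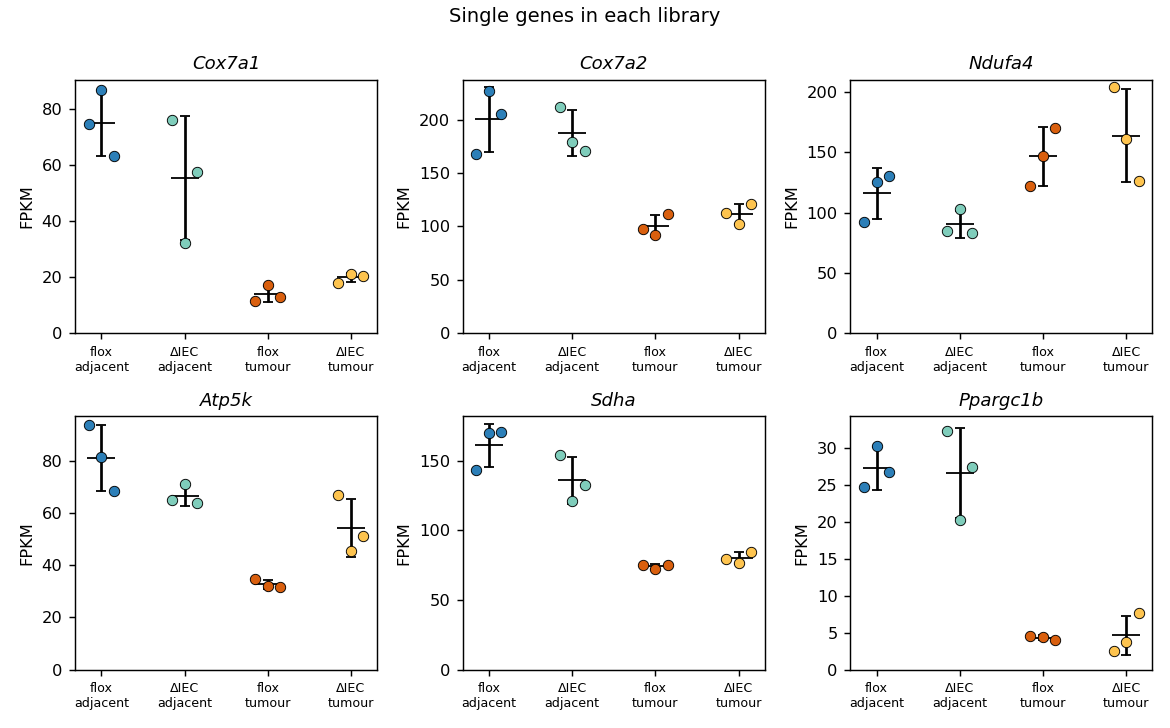
FPKM of Cox7a1, Cox7a2, Ndufa4, Atp5k, Sdha and Ppargc1b in each library (points, 3 a group), with the group mean (horizontal tick) and SD (bars), each axis starting at 0. Cox7a1, Sdha and Ppargc1b are lower in every tumour library than in every adjacent library, Ndufa4 is higher in the ΔIEC tumours, and Atp5k is higher in the 3 ΔIEC tumours than in the 3 flox tumours.

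Complex V, the ATP synthase, had 17 tested genes, of which 16 fell in flox tumours (median -0.87) and 13 in ΔIEC tumours (median -0.51). The 5 subunits of the catalytic F1 head all fell in both genotypes. Atp5b, the catalytic beta subunit and the most abundant of the 94 genes per length, was at 1029, 1252 and 1131 FPKM in flox adjacent tissue, 1197, 873 and 943 in ΔIEC adjacent tissue, 639, 711 and 713 in flox tumours and 798, 678 and 792 in ΔIEC tumours. The ΔIEC groups came close, since the lowest adjacent library was replicate 2. It fell by 0.72 (adjusted p = 0.00296) and 0.40 (adjusted p = 0.0482). Atp5d, the delta subunit of the central stalk, fell by 1.08 and 0.77.

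The membrane ring of the ATP synthase is built from identical c subunits that 3 genes encode. Atp5g1 fell from 266 ± 35.5 to 122 ± 14.0 FPKM in flox (-1.12), Atp5g3 from 293 ± 36.3 to 159 ± 16.0 (-0.87) and Atp5g2 from 95.7 ± 8.56 to 64.9 ± 8.42 (-0.56). In ΔIEC tumours Atp5g1 and Atp5g3 fell by 0.83 and 0.51, and Atp5g2 differed by -0.28 (adjusted p = 0.101). The 3 genes thus kept the order Atp5g1, Atp5g3, Atp5g2 in the size of the difference in both genotypes, although the differences between them were not tested. Of the peripheral stalk, Atp5o, Atp5h and Atp5f1 fell in both genotypes, and Atp5j fell in flox tumours (-0.87) and differed by -0.35 (adjusted p = 0.0544) in ΔIEC tumours. Atp5s, a coupling factor B-like gene whose name meets the rule, was not called (-0.05 and 0.11). A second gene model with the symbol Atp5o, which overlaps the first, was near 0 and not tested.

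Atp5k, the small e subunit through which ATP synthases form dimers, had the smallest p between the genotypes in tumours. It was at 93.7, 81.3 and 68.3 FPKM in flox adjacent tissue, 65.0, 71.1 and 63.7 in ΔIEC adjacent tissue, 34.7, 32.0 and 31.5 in flox tumours and 66.7, 45.3 and 51.1 in ΔIEC tumours. The flox tumours were the lowest of all libraries, and ΔIEC tumour replicate 1 lay among the adjacent values. Atp5k fell by 1.27 (SE 0.15, adjusted p = 0.000453) in flox tumours and differed by -0.31 (adjusted p = 0.154) in ΔIEC tumours. Between the genotypes it differed in tumours by 0.70 (SE 0.15, adjusted p = 1 in limma) and in the size of the tumour difference by 0.97 (SE 0.22, adjusted p = 1), and neither passed the threshold over all genes.

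The complexes did not differ by the same proportion. Complex IV made up 26.7% to 28.4% of the summed FPKM of all 94 genes in flox adjacent tissue, 25.7% to 28.2% in ΔIEC adjacent tissue, 23.7% to 24.5% in flox tumours and 23.9% to 24.7% in ΔIEC tumours. Complex I went the other way, from 22.3% to 23.2% and 22.0% to 24.0% in the adjacent groups to 25.2% to 25.6% and 24.8% to 26.1% in tumours. Complex V went from 31.7% to 32.8% and 32% to 32.2% in the adjacent groups to 33.8% to 34.8% and 33.8% to 34%, and complex III moved from 13.7% to 13.8% and 13.8% to 14.3% to 12.8% to 13.0% and 12.4% to 13.1%. For complexes I, III, IV and V no tumour library overlapped an adjacent library in these shares, which do not depend on how a library as a whole was scaled. They are a description, since the genes of a complex are not replicates, and no test between complexes was made. The naming rule counts Ndufa4, known as a subunit of complex IV, under complex I. Its mean went from 116 to 147 FPKM in flox and from 90.3 to 164 in ΔIEC mice. The shares were not computed with Ndufa4 under complex IV.

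**Figure D4:**
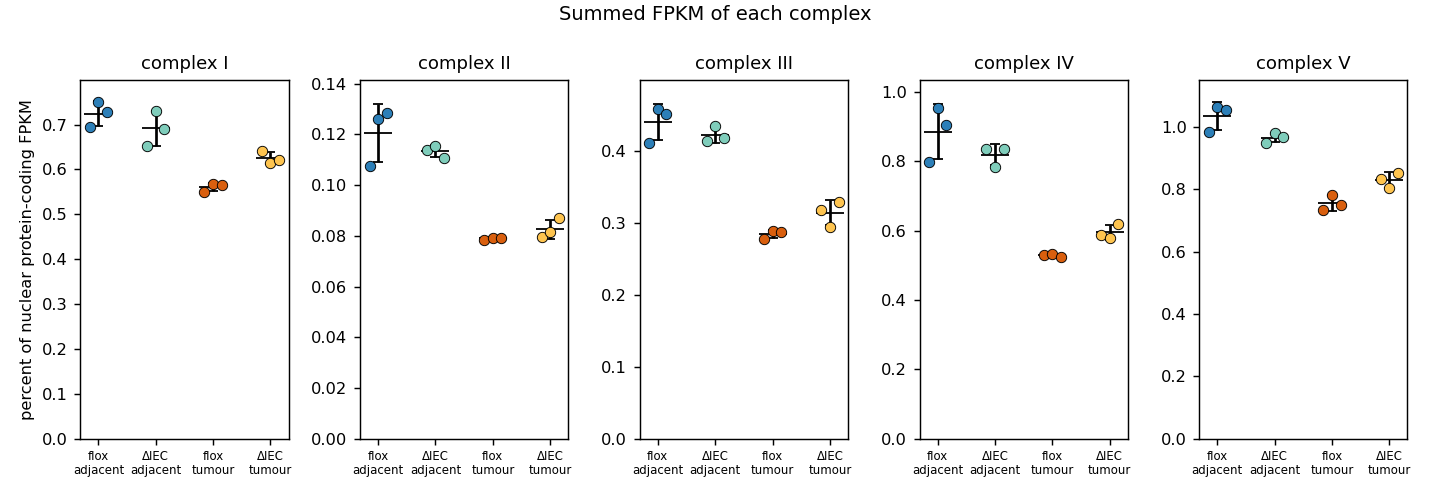
Summed FPKM of the genes named for each complex as a percent of nuclear protein-coding FPKM, in each library (points), with the group mean (horizontal tick) and SD (bars, n = 3), each axis starting at 0. In all 5 panels the 6 tumour libraries lie below the 6 adjacent libraries, and the ΔIEC tumours lie at or above the flox tumours.

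Members that fell in ΔIEC tumours were all among those that fell in flox tumours: 63 fell in both, 14 in flox tumours alone and 0 in ΔIEC tumours alone. That the lists differ does not show that the genotypes differ, which the interaction tests. Across the 87 genes the log2 differences of the 2 genotypes, which share no library, had a Pearson correlation of 0.91 and a Spearman correlation of 0.88, as a description across genes that are not independent. At the median difference, flox tumours held 54.9% and ΔIEC tumours 68.7% of the level of FPKM + 1 in their adjacent tissue.

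No respiratory chain gene was called between the genotypes. In adjacent tissue 0 of 87 were called, where 0.0% of all genes tested were, and the median ΔIEC minus flox difference was -0.15 (all genes -0.03), with 83 of the 87 negative and 4 with an unadjusted limma p below 0.05, against 702 of all genes. The tally of negative signs was 63 of 87 with quantile normalization, 66 of 88 with nuclear protein-coding totals set equal and 65 of 87 without flox adjacent replicate 2. In tumours 0 of 87 were called (0.0% of all genes), the median was 0.18 (all genes -0.01), and 85 of the 87 were positive, all but Uqcrc1 (-0.03) and Ndufb2 (-0.0011). Of the 87, 14 had an unadjusted p below 0.05 in tumours, against 317 of all 16970 genes tested. In the interaction, which asks whether the tumour difference depends on genotype, 0 were called (0.0% of all genes), the median was 0.32 (all genes 0.01), 86 of the 87 were positive and 24 had an unadjusted p below 0.05, against 448 of all genes. Signs shared by many members are not independent of each other, since the genes vary together between libraries.

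In tumours, 32 of the 87 genes had every ΔIEC library above every flox library, where 3.03% of all genes tested did, and 0 had every ΔIEC library below. In adjacent tissue 10 of the 87 had every ΔIEC library below every flox library, where 5.14% of all genes tested did, and 0 had every one above. With nuclear protein-coding totals set equal these counts were 30, where 1.94% of all genes did, and 9, where 3.16% did. The ΔIEC tumours held more summed FPKM of these genes than the flox tumours, as a share of nuclear protein-coding FPKM, in all 3 libraries. The model did not call a single gene between the genotypes, and Trappc4 was not called either. Trappc4 differed by -0.70 in tumours and by -0.59 in adjacent tissue on the log2 scale. With 3 libraries a group, 0 calls therefore do not show that the genotypes are alike.

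Besides Atp5k, the smallest p-values between the genotypes in tumours belonged to Ndufb10, Cox6b1 and Cox5b. Cox5b was at 77.7, 81.3 and 93.9 FPKM in flox tumours and 121, 98.0 and 134 in ΔIEC tumours, without overlap, a difference of 0.47 (95% interval 0.16 to 0.78). Cox6b1 was at 210.5, 202 and 223 FPKM in flox tumours and 271, 256 and 270.2 in ΔIEC tumours, a difference of 0.33 (95% interval 0.11 to 0.54). In adjacent tissue the same gene was at 413.8, 487 and 426 and 401, 353 and 376 FPKM, so that the ΔIEC libraries were the lower ones there (-0.23). In limma the adjusted p of these was 1 in tumours and 0.931 in adjacent tissue, where Atp5j (-0.31), Cox6b1, Cox5a (-0.33) and Ndufaf1 (-0.28) had the smallest unadjusted p.

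**Figure D5:**
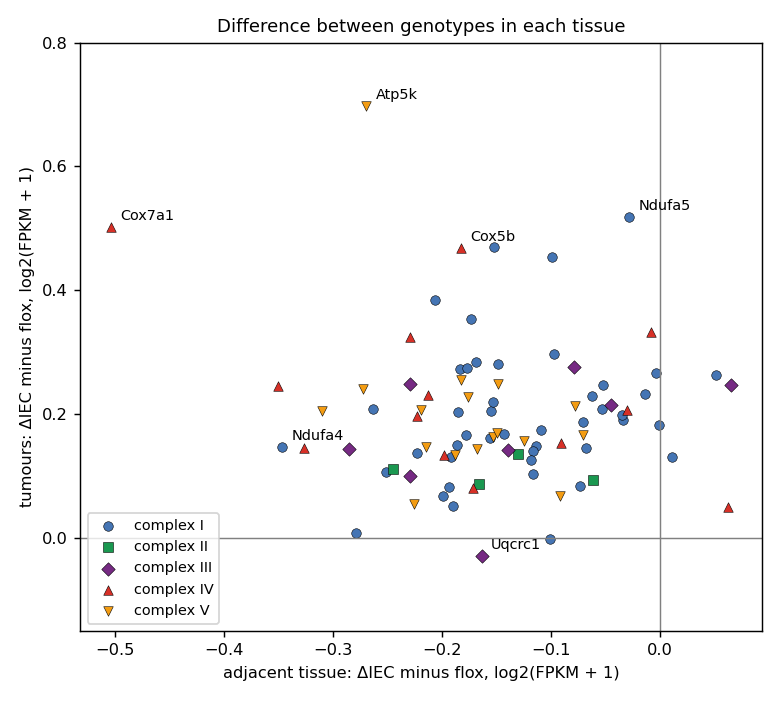
Log2 difference between ΔIEC and flox mice for each of the 87 tested genes in adjacent tissue (horizontal) and in tumours (vertical), by complex. The 2 axes share no library, and 83 genes lie left of 0 and 85 above 0, but no gene passed the adjusted threshold on either axis.

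The adjacent libraries bear on these comparisons. The 3 adjacent libraries with fewer colonocyte transcripts, flox replicate 1 and ΔIEC replicates 2 and 3, had a median FPKM over the 94 genes of 93.8, 99.8 and 92.1, against 128 and 119 in flox replicates 2 and 3 and 106 in ΔIEC replicate 1. Without flox replicate 1 the median difference in flox tumours was -0.97 and the median interaction 0.41. The median difference between the genotypes in adjacent tissue was -0.23 without flox replicate 1, -0.08 without flox replicate 2 and -0.21 without ΔIEC replicate 1. The part of tissue composition in these differences was not tested.

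Genes that work with the chain were followed through lists. For the counts below, 19.7% of all genes tested were called lower and 16.6% higher in flox tumours, and 15.5% and 13.9% in ΔIEC tumours. With totals set equal these shares were 10.3% and 37.3% in flox tumours, and 8.7% and 25.6% in ΔIEC tumours. Of the 13 subunits encoded by mitochondrial DNA, 9 fell in flox tumours (median -0.90) and 2, mt-Co1 and mt-Nd4, fell in ΔIEC tumours (median -0.47), against 6 and 1 with totals set equal. mt-Co1, the catalytic subunit of complex IV, was at 15025 ± 2987 FPKM in flox adjacent tissue and 5675 ± 418 in flox tumours, and at 13066 ± 5881 and 6476 ± 1242 in ΔIEC mice (-1.39 and -0.94). mt-Co2 and mt-Co3, parts of the same enzyme, were listed at only 10.5 and 9.14 FPKM in flox adjacent tissue, so levels of the mitochondrial transcripts are not compared with each other.

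Of 41 assembly factors outside the naming rule, 21 fell and 1 rose in flox tumours (median -0.43), and 9 fell and 1 rose in ΔIEC tumours (median -0.23). The 1 that rose in both was Sdhaf1, an assembly factor of complex II (0.50 and 0.66). Among those that fell were Surf1 (-1.24 and -0.82), Sco1 (-1.24 and -0.997) and Cox10 (-1.07 and -1.02), which serve copper and haem insertion or assembly in complex IV. With nuclear protein-coding totals set equal, 8 were called lower and 4 higher in flox tumours, where 10.3% of all genes were called lower and 37.3% higher. In ΔIEC tumours 5 were called lower and 6 higher, where 8.7% of all genes were called lower and 25.6% higher. The list's median lay at -0.37 and -0.16 relative to the median of all genes.

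Of 15 genes for electron carriers and coenzyme Q synthesis, 9 fell in flox and 8 in ΔIEC tumours, with medians of -0.69 and -0.55. Pdss1 and Pdss2, which together make the side chain of coenzyme Q, fell by 1.33 and 1.27 in flox and 1.04 and 0.98 in ΔIEC tumours. Cytochrome c (Cycs) fell by 0.91 in flox tumours and differed by -0.55 (adjusted p = 0.0986) in ΔIEC tumours. Of 13 genes of the tricarboxylic acid cycle, which feeds the chain, 11 fell in flox and 7 in ΔIEC tumours (medians -0.77 and -0.48). Suclg2, a subunit of succinyl-CoA synthetase, fell by 1.67 and 1.11, whereas Idh3a, the catalytic subunit of isocitrate dehydrogenase, was not called (-0.08 and 0.08). With totals set equal 8 and 6 of these 13 genes were called lower and 0 higher. Of all genes, 10.3% and 8.7% were called lower there and 37.3% and 25.6% higher.

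Among 14 regulators of mitochondrial biogenesis 2 fell and 1 rose in each genotype (medians -0.12 and -0.03). Over all genes tested, 19.7% and 15.5% were called lower and 16.6% and 13.9% higher in flox and ΔIEC tumours. Ppargc1b, a coactivator of genes for mitochondrial proteins, was at 24.6, 30.3 and 26.7 FPKM in flox adjacent tissue, 32.3, 20.2 and 27.4 in ΔIEC adjacent tissue, 4.56, 4.47 and 3.98 in flox tumours and 2.56, 3.72 and 7.65 in ΔIEC tumours. The lowest adjacent library was above the highest tumour library by a wide margin. It fell by 2.40 (SE 0.28, adjusted p = 0.00042) and 2.37 (SE 0.28, adjusted p = 0.000913). Esrra, the nuclear receptor it is known to work with, fell by 1.10 and 0.92, and Myc rose by 1.12 and 1.23. Nrf1 (0.21 and -0.03), Gabpa (0.24 and 0.49), Tfam (-0.28 and -0.13) and Ppargc1a (-0.50 and -0.27) were not called. With totals set equal Ppargc1b and Esrra were called lower and Myc higher in both genotypes as before, at -2.02, -0.69 and 1.52 in flox tumours, and Gabpa was also called higher in both (0.64 and 0.77), on a scale where the median of all genes was 0.34 and 0.21. Among the 72 genes with a promoter, the 14 with the ETS letters had a median difference of -0.87 in flox tumours and the other 58 also -0.87, and the 7 with the NRF1 letters -0.77 against -0.87 for the other 65.

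Of 19 genes of glycolysis and lactate transport, 7 fell and 1 rose in flox tumours (median -0.43), where 19.7% of all genes fell and 16.6% rose. In ΔIEC tumours 5 fell and 1 rose (median -0.15), where 15.5% of all genes fell and 13.9% rose. Slc16a1, a carrier of lactate and butyrate, fell from 62.8 ± 8.87 to 16.2 ± 0.811 FPKM in flox and from 52.9 ± 18.2 to 21.5 ± 7.24 in ΔIEC mice (-1.88 and -1.26). Slc16a3, the lactate exporter, was the 1 that rose, from 8.51 ± 3.53 to 32.5 ± 15.6 and from 5.59 ± 2.46 to 31.3 ± 20.5 FPKM (1.79 and 2.17). Hk1 and Pfkl, which act early in glycolysis, fell by 1.29 and 1.37 in flox and 1.02 and 0.98 in ΔIEC tumours, and Gapdh (-0.07 and 0.27), Pkm (0.11 and 0.36) and Eno1 (-0.04 and 0.20) were not called. With totals set equal, where the median of all genes was 0.34 in flox and 0.21 in ΔIEC tumours, these 3 were at 0.35, 0.53 and 0.38 in flox and 0.56, 0.65 and 0.49 in ΔIEC tumours. All 3 were called higher there, as were 37.3% and 25.6% of all genes. Of the 19 genes, 4 were called higher and 5 lower in flox tumours on that scale, and 4 higher and 3 lower in ΔIEC tumours. Of all genes, 10.3% and 8.7% were called lower. Relative to all genes the list's median lay at -0.35 and -0.07.

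Respiratory chain transcripts are short and abundant, and both properties were set beside the other genes. The FPKM-weighted transcript length of the 87 genes ranged from 366 to 2648 nucleotides with a median of 715, against 2467 for the other protein-coding genes. Among genes of up to 750 nucleotides, the 48 respiratory chain genes had a median difference of -0.95 in flox and -0.57 in ΔIEC tumours, and the 486 other genes -0.06 and 0.09. Among genes with a mean FPKM above 100, the 40 respiratory chain genes had medians of -0.98 and -0.62 and the 583 other genes -0.25 and -0.04. From 30 to 100 FPKM, the 34 respiratory chain genes had medians of -0.86 and -0.50 and the 2137 other genes -0.25 and -0.14. Below 30 FPKM the difference was smaller. The 13 respiratory chain genes there had medians of -0.44 and -0.06 and the 10518 other genes 0.08 and 0.03. Transcripts annotated as protein-coding held 89.1% to 90.1% of the summed FPKM of these genes in the 6 adjacent libraries and 88.6% to 88.9% in the 6 tumour libraries, without overlap. The remainder were retained-intron, processed and nonsense-mediated-decay transcripts, so that this non-coding share was slightly larger in every tumour library. Many of these genes have processed pseudogenes of near-identical sequence, and how the authors' counting divided such reads is not stated in the labels or processing notes.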

How the data were processed

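RNA from colon tumours and adjacent tissue was made into strand-specific TruSeq libraries, per the labels' protocols. FastQC, STAR 2.5, Cuffnorm and GRCm38 are named per the submitters' processing notes, without their settings. The authors deposited log2(FPKM + 1) per transcript for 12 libraries. Of 123062 transcripts, 118004 (95.9%) matched GENCODE M21 on GRCm38, and their FPKM values were summed per gene.

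Gene values went into limma 3.58.1 (R 4.3.3) as log2(FPKM + 1), a pseudocount of 1. The filter, an FPKM of 1 or more in 3 or more libraries, left 16970 genes. The fit used lmFit, contrasts.fit and eBayes with trend and robust, on 4 group means with 8 residual degrees of freedom. Calls required an adjusted p (Benjamini-Hochberg, two-sided, over all genes of a contrast) below 0.05. The procedure was tested on simulated data.

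The members and lists were chosen with earlier results of these data known. Named were all complex II genes, the 4 smallest p in each direction and contrast, the largest called difference of each complex, isoform pairs, the highest and lowest genes of each complex and list members with the smallest p. Other genes were named after their values were seen. Alternatives covered pseudocount, filter, scaling, transcript class, groups fitted, moderation, replicate blocks and each library left out.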

Additional observations from a re-analysis of the deposited data

How the results depend on the processing

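The count of members called in flox tumours, 77, ranged from 63 to 79 over the alternatives. In ΔIEC tumours, 64 became 41 with quantile normalization, 34 with nuclear protein-coding totals set equal and 3 (Cox6a1, Ndufa13 and Uqcrb) with a replicate block that takes the description code as a fixed effect, where all genes together had 651 calls. A block by title number gave 54 and a block with the code as a random effect 65. In flox tumours these blocks gave 76 (fixed code), 77 and 77. The fixed code block takes the tumour difference from adjacent and tumour libraries with the same code. In flox mice these were replicates 1, 2 and 3, and in ΔIEC mice replicates 2 and 3 only. Labels do not say that numbers or codes mark a mouse. Deviations from the group means correlated at -0.40 to 0.19 in 18 pairs with the same title number. In 5 pairs with the same code, each an adjacent and a tumour library of the same genotype, they correlated at -0.19 to 0.17. With 3 libraries a group, these correlations cannot decide whether libraries with the same code came from the same mouse. The main fit had no block, since the design text states only triplicates. Median differences under quantile normalization were -0.060 for genotype in adjacent tissue, -0.48 for flox tumours, -0.31 for ΔIEC tumours and 0.20 for the interaction, and with totals set equal -0.078, -0.45, -0.24 and 0.20 in the same order, against -0.15, -0.87, -0.54 and 0.32. Leaving out each library gave 74 to 79 calls and medians of -0.97 to -0.81 for flox tumours, 50 to 66 calls and -0.57 to -0.48 for ΔIEC tumours, and medians of -0.23 to -0.08 for genotype in adjacent tissue, 0.15 to 0.24 in tumours and 0.25 to 0.41 for the interaction. The sign turned only for members not called in the contrast concerned. By genotype in adjacent tissue, Cox6b2 was -0.024 with quantile normalization and Ndufaf4 -0.033 with median centring. In tumours by genotype, Ndufb2 was 0.011 with median centring. In the interaction, Cox6b2 was 0.090 with quantile normalization, 0.043 with median centring and 0.23 with the fixed code block. In ΔIEC tumours, Cox7a2l was 0.027 with totals set equal. Over the fits without 1 library, ranges that crossed 0 were, by genotype in adjacent tissue, -0.081 to 0.22 for Uqcrq, -0.11 to 0.32 for Cox6b2 and -0.13 to 0.15 for Ndufaf4, in tumours by genotype -0.20 to 0.12 for Uqcrc1 and -0.063 to 0.072 for Ndufb2, and for Cox6b2 -0.0014 to 0.43 in ΔIEC tumours and -0.27 to 0.16 in the interaction. The cause of these changes was not tested. Ndufa4 in ΔIEC tumours was 0.62 and not called in limma with the fixed code block (adjusted p = 0.0610), which there rests on replicates 2 and 3. Genotype contrasts and the interaction called 0 members under every alternative run. FPKM carries no depth, so its limits on low genes cannot be stated.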

Other observations

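Ndufa4 has a paralogue, AA467197, the mouse counterpart of human C15orf48 (NMES1), whose protein is known to take the place of Ndufa4 in complex IV. It was looked up after the values of Ndufa4 had been seen. AA467197 was at 281, 339.9 and 282 FPKM in flox adjacent tissue, 435, 133 and 262 in ΔIEC adjacent tissue, 151, 77.0 and 209 in flox tumours and 179, 81.8 and 176 in ΔIEC tumours. Where Ndufa4 was higher in tumours, AA467197 was lower, by -1.15 on the log2 scale in flox and -0.85 in ΔIEC mice, but neither difference was called (limma, adjusted p = 0.083 and 0.205) and the ΔIEC groups overlapped.

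Leaving out ΔIEC adjacent replicate 1 gave 299 calls between the genotypes in adjacent tissue over all genes, against 0 with all libraries. Of all genes, 1.71% were called higher and 0.053% lower. Of the 87 respiratory chain genes 0 were called, which at such low shares does not set them apart.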
